A study of Arabidopsis thaliana with 7 samples.

Results

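The binding of HY5 at the genes of the early light-induced proteins ELIP1 (AT3G22840) and ELIP2 (AT4G14690) of Arabidopsis was described from ChIP-seq, a method that sequences the chromatin fragments recovered together with a bound protein. The sites were chosen by position: every called peak whose centre lay from 1500 bp outside to 500 bp inside either end of one of these genes. This gave 12 of the 41276 peaks in the 6 peak lists, 1 peak per gene in each list, and they formed 2 of 10233 joined sites. A peak had to be called to be counted, so its excess over the mock is part of how it was chosen. The genes themselves were picked with earlier results of these data known, so their levels and light differences are given as a description.

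All plants were of the Wassilevskija (Ws) accession, carried the hy5-ks50 T-DNA insertion and expressed a HY5-YFP fusion, so the values refer to the fusion in a background that carries the insertion. The labels name neither the promoter of the transgene nor the number of lines, and plants without the fusion were not analysed here. Whole plants 10 days old, entrained to cycles of 12 hours of light, were fixed after 52 hours under either blue or red lamps at a fluence rate of 15 µmol m-2 s-1. Each light had 3 biological replicates, and the mock was 1 precipitation, with beads lacking the antibody, from the pooled blue light samples. The libraries held 7.99 to 11.9 M tags (1 M is 1000000 aligned tags).

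HY5 is a bZIP transcription factor that accumulates in light and binds promoters of light-responsive genes. ELIPs are thylakoid membrane proteins related to the chlorophyll-binding proteins of the light-harvesting antenna. They appear for a short time when seedlings turn green and when leaves meet strong light, and they are thought to bind chlorophyll set free at such times and so to limit photo-oxidative damage. ELIP1 and ELIP2 are near copies of each other in Arabidopsis, on different chromosomes.

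Both ELIP genes had a single HY5-YFP site, and at each gene it lay a little over 500 bp outside 1 gene end. At ELIP1 the peak of blue light replicate 1 spanned 8086059 to 8086405 of chromosome 3 (TAIR10), and the peak centres of the 6 libraries lay 555 to 589 bp beyond the high-coordinate end. At ELIP2 the peak of blue light replicate 1 spanned 8417561 to 8417907 of chromosome 4, and the centres lay 502 to 530 bp beyond the low-coordinate end. The gene table used carries no strand, so it does not say which end is the start. Both sites lay between genes. The next gene beyond the ELIP1 site, AT3G22845, began 1010 bp from its centre, so that site falls in the window of AT3G22845 too. The next gene beyond the ELIP2 site, APS3, which encodes an ATP sulfurylase, lay 2072 bp from its centre.

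**Figure D1:**
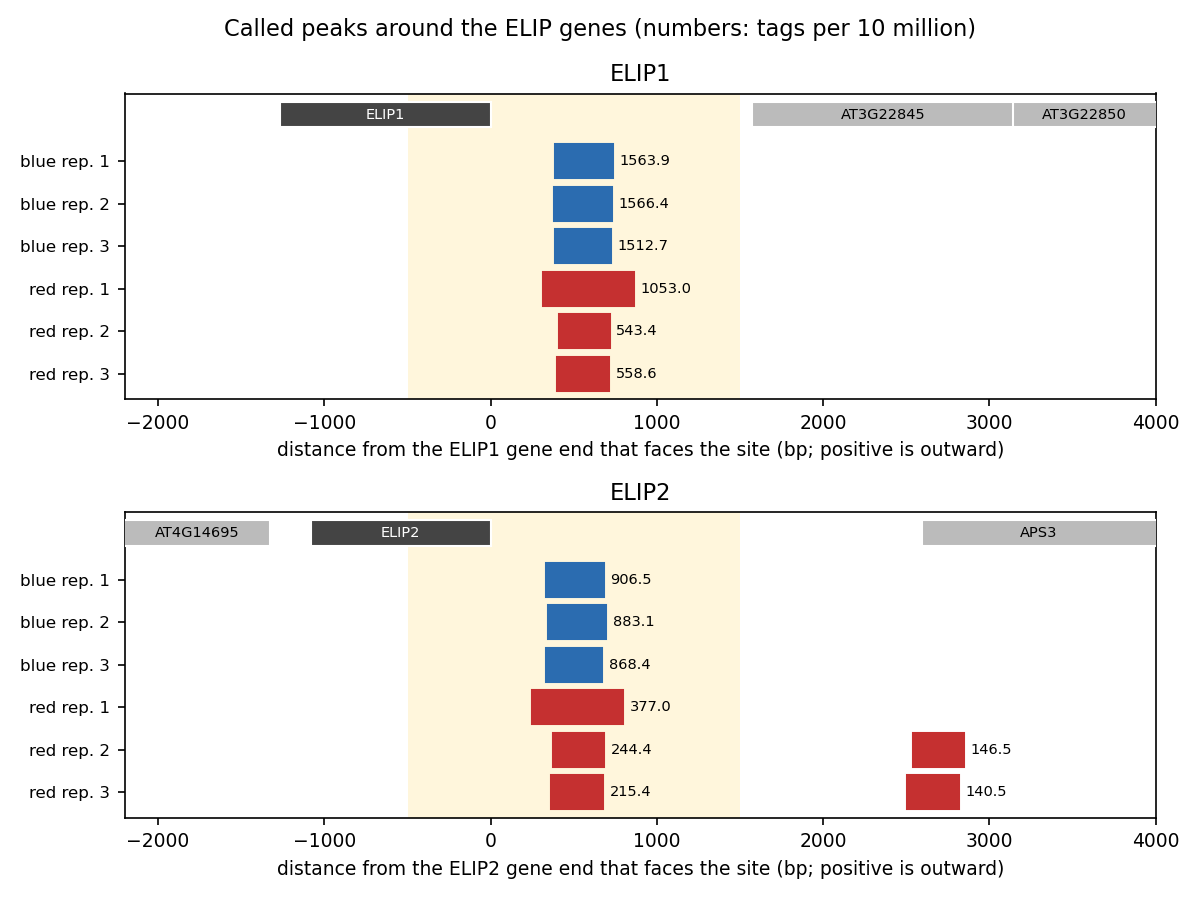
Called peaks (blue and red boxes, 1 row per library, drawn to the width of the caller's window) and genes (dark and light grey boxes) against the distance in bp from the ELIP gene end that faces the site, with positive values outward and the window used to choose peaks at that end shaded. Each ELIP site is in all 6 lists at about the same distance, and 2 red light libraries have a further peak at APS3, outside the window.

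HY5-YFP tags at ELIP1 were higher in blue than in red light. Tags are given per 10 M tags of the library, as deposited. The ELIP1 site had 1563.9, 1566.4 and 1512.7 tags in blue light replicates 1 to 3, and 1053.0, 543.4 and 558.6 in red light replicates 1 to 3. The 3 blue libraries lay close together, the red ones were all below them, and red light replicate 1 stood above the other red libraries. The blue mean was 1548 ± 30.3 and the red mean 718 ± 290 (SD, n = 3 each), a ratio of 2.15.

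ELIP2 had fewer tags than ELIP1 in every library and a larger difference between lights. Its site had 906.5, 883.1 and 868.4 tags in blue light replicates 1 to 3, and 377.0, 244.4 and 215.4 in red light replicates 1 to 3. Again the groups did not overlap and red light replicate 1 was the highest red library. The blue mean was 886 ± 19.2 and the red mean 279 ± 86.2 (SD, n = 3 each), a ratio of 3.18. The smallest of these values, that of red light replicate 3, stands for 256 tags, and its exact 95% Poisson interval runs from 189.8 to 243 tags per 10 M. The fewest tags behind a blue light value of ELIP2 were 694, with an interval from 804.9 to 935 tags per 10 M. Tags amplified by PCR are not independent molecules, so these intervals cover counting error only.

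The highest red library at both genes, red light replicate 1, was also the one with the widest caller's window. The window of red light replicate 1 was 549 bp wide, against 307 to 349 bp in the other libraries, and it collects tags from further out. Divided by window width, ELIP1 had 1918, 1770 and 1785 tags per kb in red light replicates 1 to 3 and 4507, 4488 and 4436 in blue light replicates 1 to 3. ELIP2 had 687, 796 and 688 tags per kb in the red libraries and 2612, 2530 and 2547 in the blue ones. On this scale the 3 red libraries came close to each other at both genes, and red light replicate 1 was no longer the highest at ELIP2. The means per kb at ELIP1 were 4477 ± 36.7 under blue and 1824 ± 81.6 under red lamps, a ratio of 2.45, and at ELIP2 2563 ± 43.4 and 724 ± 62.7, a ratio of 3.54 (SD, n = 3 each).

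**Figure D2:**
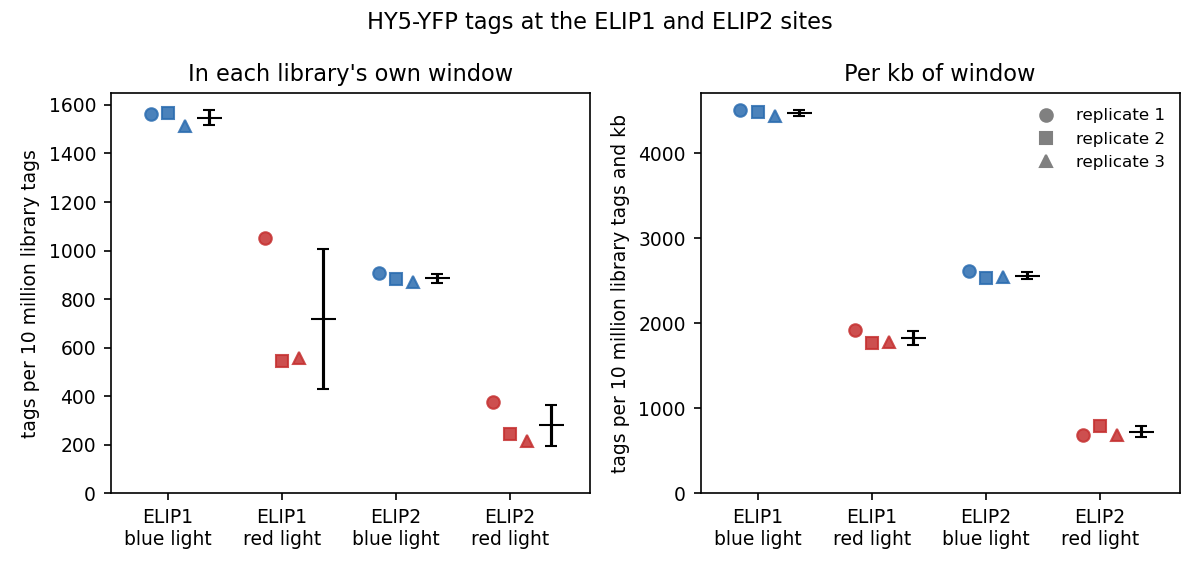
Tags per 10 M library tags at the ELIP1 and ELIP2 sites, in each library's own window (left) and per kb of window (right), with 1 symbol per replicate and the mean ± SD (n = 3) as a black bar beside them. All blue points lie above all red points at both genes, and the red points draw together per kb. At ELIP1 in red light the SD is 290 around a mean of 718 on the left. On the right, in the other unit, it is 81.6 around a mean of 1824.

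Non-overlap of the lights was common at this scale: of the 3557 sites called in all 6 libraries, 59.4% had all blue values above all red ones, and 95.5% did per kb of window. The limma fit over these sites called 51.9% of them higher in blue light at an adjusted p under 0.05, and 0.0281% (1 site) higher in red light. Both ELIP sites were among those higher in blue, a share of the members that says little beside this background. Their folds lay far from the middle of all sites. The log2 fold of blue over red, on log2(tags per 10 M + 1), was 1.18 (SE 0.22) at ELIP1 and 1.71 (SE 0.21) at ELIP2, against a median of 0.48 over all 3557 sites. ELIP2 thus ranked 3rd and ELIP1 40th of the 3557 by fold, given here as a description.

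These ranks moved little with the libraries used. With each library left out in turn, ELIP2 ranked from 2nd to 5th and ELIP1 from 24th to 54th. Per kb of window the ranks were 3 and 41, and after the mock tags were subtracted 5 and 35. Without red light replicate 1 the log2 folds were 1.49 at ELIP1 and 1.94 at ELIP2.

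The general shift toward blue light depends on the scaling, and the ELIP folds shrink with it. Each library was therefore also divided by its own median over the 3557 sites. ELIP1 then stood at 4.32, 4.45 and 4.17 times the median in blue light replicates 1 to 3 and at 3.30, 2.47 and 2.54 times in the red ones. ELIP2 stood at 2.50, 2.51 and 2.39 times the median in blue light, and at 1.18, 1.11 and 0.981 times in red light. So ELIP2 was well above the typical site in blue light and close to it in red light, while ELIP1 was above it in both. Non-overlap with blue higher was found at 13.1% of sites on this scale. The log2 folds after centring on the median were 0.65 (SE 0.07) at ELIP1 and 1.18 (SE 0.07) at ELIP2, and limma called 7.96% of sites higher in blue light, both ELIP sites among them. As the genes were picked with earlier results known, their calls are a description.

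Peaks took up 24.8% to 25.7% of the tags in blue and 12.7% to 15.9% in red light libraries, so scaling by the tags in peaks puts most sites higher in red light, with a median log2 fold of -0.39. Per 1 M tags in peaks, ELIP1 had 612, 632 and 588 tags in blue light replicates 1 to 3 and 663, 418 and 439 in the red ones, and here the lights overlapped because red light replicate 1 was the highest library. ELIP2 had 355, 356 and 338 tags in the blue libraries on this scale and 237, 188 and 169 in the red ones. These did not overlap, as was so with blue higher at 1.46% of all sites. The log2 folds were 0.30 (SE 0.12) at ELIP1 and 0.83 (SE 0.11) at ELIP2, and limma called 1.49% of sites higher in blue light, both ELIP sites among them. Again these calls are a description, for genes picked with earlier results known.

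Order within a library needs no scaling. Among the 3557 sites ELIP1 ranked 46th, 47th and 48th by tags in blue light replicates 1 to 3, and 147th, 287th and 264th in the red ones. ELIP2 ranked 260th, 275th and 284th in blue light and 1335th, 1492nd and 1842nd in red light. The place of both sites was nearly the same in the 3 blue libraries. In each red library it was lower than in every blue one, as was so at 15.1% of the sites. The drop was steeper for ELIP2, which went from among the taller sites to about the middle.

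The ratio of ELIP1 to ELIP2 within a library is also free of depth and of any factor common to all sites. Background tags at a site do not cancel in it, and how far the window width bears on it was not tested. ELIP1 had 1.73, 1.77 and 1.74 times the tags of ELIP2 in blue light replicates 1 to 3. In red light replicates 1 to 3 the ratio was 2.79, 2.22 and 2.59. All 3 red ratios lay above all 3 blue ones. The log2 difference between the genes averaged 0.80 ± 0.02 under blue and 1.33 ± 0.17 under red lamps (SD, n = 3 each). Blue minus red came to -0.53, with an exact two-sided permutation p = 0.1. That is the lowest value this design of 3 and 3 libraries can give. As the genes were picked with earlier results of these data known, this p is a description only and lends no support to a difference. With each library left out in turn the blue minus red value stayed between -0.62 and -0.46. It was -0.54 after mock subtraction, where the ratios were 1.67, 1.72 and 1.68 in the blue libraries and 2.80, 2.11 and 2.55 in the red ones.

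The mock held more tags at ELIP1 than at nearly all other sites. In the windows of the 6 libraries it had 67 to 97 tags at ELIP1 and 24 to 35 at ELIP2, against medians of 20 to 31 over the 3557 sites. ELIP1 lay above 98.7% to 99.1% of the sites in mock tags and ELIP2 above 56.5% to 63.0%. The mock ratio of ELIP1 to ELIP2 was 2.77 to 3.13, above the ratio in every blue library and near that in red light replicate 1. The mock was prepared from blue light plants, and a mock of red light plants was not analysed here. With the mock tags subtracted, the log2 folds were 1.33 (SE 0.22) at ELIP1 and 1.88 (SE 0.21) at ELIP2.

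**Figure D3:**
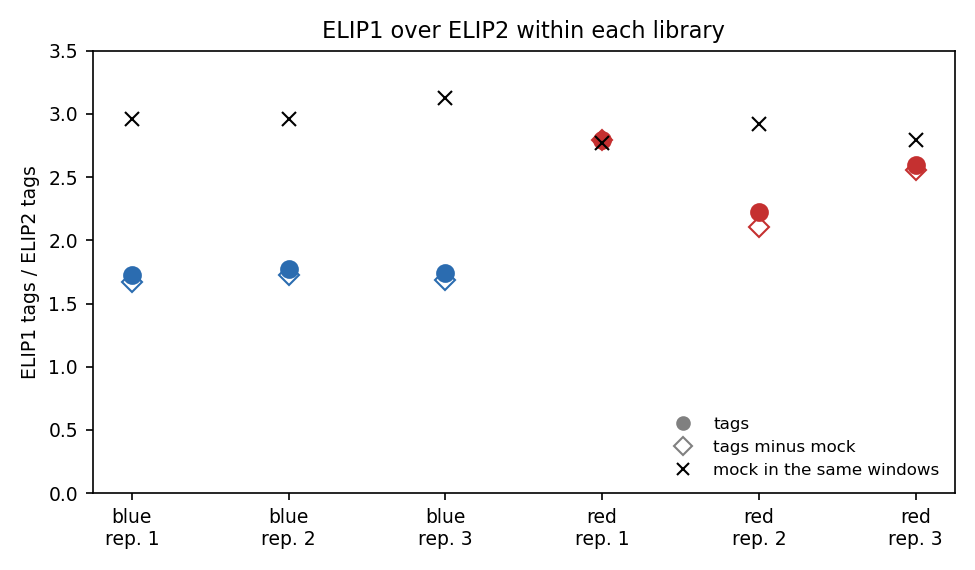
Ratio of ELIP1 to ELIP2 in each library, for tags (filled circles), tags minus mock (open diamonds) and the mock's own tags in the same windows (crosses). The blue libraries lie at 1.73 to 1.77 and the red ones at 2.22 to 2.79, while the mock lies at 2.77 to 3.13 throughout.

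By the authors' fold over the mock, the order of the genes in blue light was the other way round. ELIP2 stood 24.8-, 24.2- and 24.8-fold over the mock in blue light replicates 1 to 3, and 7.37-, 6.96- and 6.14-fold in the red ones. ELIP1 stood 14.5-, 14.5- and 13.8-fold over the mock in blue light, and 7.43-, 5.31- and 5.70-fold in red light. In blue light ELIP2 lay above 95.8% to 96.5% of the 3557 sites on this measure and ELIP1 above 66.1% to 72.2%, while in red light ELIP2 lay above 27.7% to 49.99% and ELIP1 above 14.1% to 50.9%. At a bar of 8-fold over the mock, all 6 blue ELIP peaks stood above it and all 6 red ones below, with the caller's own bar at 4-fold. The same split, all blue libraries above 8-fold and all red ones below, was found at 21.3% of the sites.

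The deposited lists also give a fold over the 10000 bp around each peak, which does not use the mock. ELIP1 stood 24.4-, 26.6- and 25.4-fold over its surroundings in blue light replicates 1 to 3 and 15.4-, 15.0- and 15.4-fold in the red ones. ELIP2 stood 15.3-, 15.4- and 16.0-fold over its surroundings in blue light, and 5.29-, 7.07- and 6.07-fold in red light. No red library reached a blue one at either gene, as was so at 82.0% of the 3557 sites, whose medians were 11.3 to 11.8 in blue and 6.89 to 8.52 in red light libraries. The means were 25.5 ± 1.09 and 15.3 ± 0.243 at ELIP1 and 15.5 ± 0.430 and 6.14 ± 0.892 at ELIP2 (SD, n = 3 each).

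The shape of the peaks differed between the genes. The focus ratio of HOMER is the share of a peak's tags that lie on the side of its centre that their strand predicts, and it is high for a sharp peak. It was 0.758, 0.775 and 0.773 at ELIP1 in blue light replicates 1 to 3, and 0.741, 0.717 and 0.716 in the red ones. ELIP2 had 0.888, 0.908 and 0.913 in blue light, and 0.782, 0.905 and 0.902 in red light, with the low value in the library with the wide window. The medians over the 3557 sites were 0.845 to 0.851 in blue and 0.789 to 0.820 in red light libraries. ELIP1 was thus below the median in every library, and ELIP2 above it in every library but red light replicate 1.

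Other peaks near the ELIP sites were few. Within 10000 bp of the ELIP1 site there was 1 other site, 9.12 to 9.15 kb away on the far side of HSFA6B, which encodes a heat stress transcription factor. It was singled out after its values were seen. It had 600.9, 590.4 and 563.1 tags in blue light replicates 1 to 3 and 576.3, 504.4 and 509.8 in the red ones, so that the lights overlapped and the ratio of the means was 1.10. ELIP1 had 2.60, 2.65 and 2.69 times the tags of this neighbour in blue light, and 1.83, 1.08 and 1.10 times in red light.

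Near ELIP2 the nearest peak left out by the window lay inside APS3, 2661 to 2691 bp outside the gene end. It was called in red light replicates 2 and 3, with 146.5 and 140.5 tags, and in no other library. Only 25 of 5043 red consensus sites (those with a peak in 2 or more of the 3 libraries) lacked a peak in every blue library, and this is 1 of them. It stood 4.77- and 4.37-fold over the mock and 4.40- and 4.03-fold over its surroundings, where the caller requires 4-fold for each. The peak was thus near the bar on both measures. Its surroundings hold the ELIP2 peak, which is taller in blue light. How far the ELIP2 peak bears on this call was not tested, and tags at this place in the blue libraries were not analysed here.

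The sites most like ELIP2 over the 6 libraries, by Euclidean distance of log2 tags after each site was centred on its own mean, lay nearest to AT1G75490 (distance 0.12), PyrD (0.22), FAF2 (0.24), AT4G36530 (0.27) and SNC1 (0.35). Their blue means ran from 631 tags (SNC1) to 836 (AT4G36530) and their red means from 203 (SNC1) to 254 (AT4G36530). Those most like ELIP1 lay nearest to DTX35 (0.18), AT5G04830 (0.21), GH9B11 (0.21), AT5G21280 (0.24) and AT5G21940 (0.24), of which DTX35 was the tallest, with a blue mean of 1137 ± 66.4 tags and a red mean of 528 ± 188 (SD, n = 3 each). All the sites named here share libraries and window widths with the ELIP sites. In the order of folds, the sites just above ELIP2 were nearest to AT4G26190 (1.79) and AT4G36530 (1.76), and those just below to AT1G75490 (1.69), PyrD (1.67) and SNC1 (1.65). The sites just above ELIP1 were nearest to AT2G36690, ABC1 and AT3G44100 (each 1.18), and those just below to UGT78D2 (1.18), a flavonoid glycosyltransferase, AT3G52740 (1.17) and SDR1 (1.17).

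**Figure D4:**
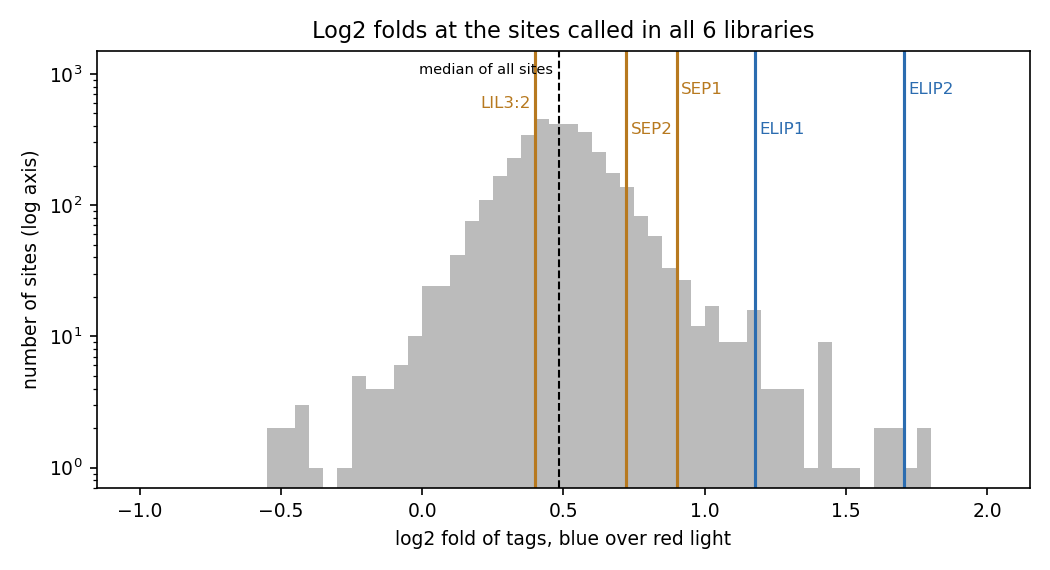
Number of sites (log axis) by log2 fold of blue over red tags, for the 3557 sites present in every list, with their median dashed. Blue lines mark ELIP1 (1.18) and ELIP2 (1.71), and brown lines the other LHC-like genes with a site in all 6 lists, which lie between 0.40 and 0.90.

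ELIPs belong to the LHC-like proteins, relatives of the antenna proteins that serve in protection and assembly rather than in light harvesting. All 9 genes listed for this family had a consensus site in blue light and 6 of 9 in red light, against 43.6% and 26.7% of 27444 protein-coding genes. ELIP1, ELIP2, SEP1, SEP2, LIL3:2 and OHP2 had one in both lights, and OHP, LIL3:1 and NPQ4 had one in blue light only. Among all protein-coding genes with a consensus site in blue light, 39.1% lacked one in red light. Sites in all 6 lists were found at 5 of the 9 genes, with a median log2 fold of 0.90, and at the 3 of these other than ELIP1 and ELIP2 the median was 0.72.

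SEP2, a stress-enhanced protein induced by strong light, had the tallest site of the family after ELIP1 in blue light, and stood above ELIP1 in red light replicates 2 and 3. It had 1070.8, 1148.1 and 1118.6 tags in blue light replicates 1 to 3 and 819.8, 593.6 and 627.6 in the red ones, with a log2 fold of 0.72. SEP1, of the same kind, averaged 442 ± 10.4 tags under blue and 238 ± 31.0 under red lamps (SD, n = 3 each), with a log2 fold of 0.90. LIL3:2, which helps to hold geranylgeranyl reductase of chlorophyll synthesis at the membrane, had 535 ± 16.4 and 409 ± 63.0 tags (SD, n = 3 each) and the smallest fold, 0.40. The blue values of these 3 genes lay above all their red ones, as was so at 59.4% of the 3557 sites, and their folds were all below that of ELIP1.

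The other family genes lacked a peak in at least 1 red list. OHP2, which takes part in the assembly of photosystem II, had 379.2, 418.3 and 459.2 tags in blue light and peaks of 298.0 and 183.4 tags in red light replicates 1 and 3. OHP, its partner, had 171 ± 2.77 tags in blue light (SD, n = 3) and 1 red peak of 92.7 tags in red light replicate 2. LIL3:1 had 124 ± 18.8 tags in blue light (SD, n = 3) and no red peak at this site. NPQ4, which encodes the PsbS protein of non-photochemical quenching, had peaks of 382.6 and 370.8 tags in blue light replicates 1 and 2 at its highest site and none in red light. A site without a peak has no value in the lists, so these genes have no fold between lights.

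**Figure D5:**
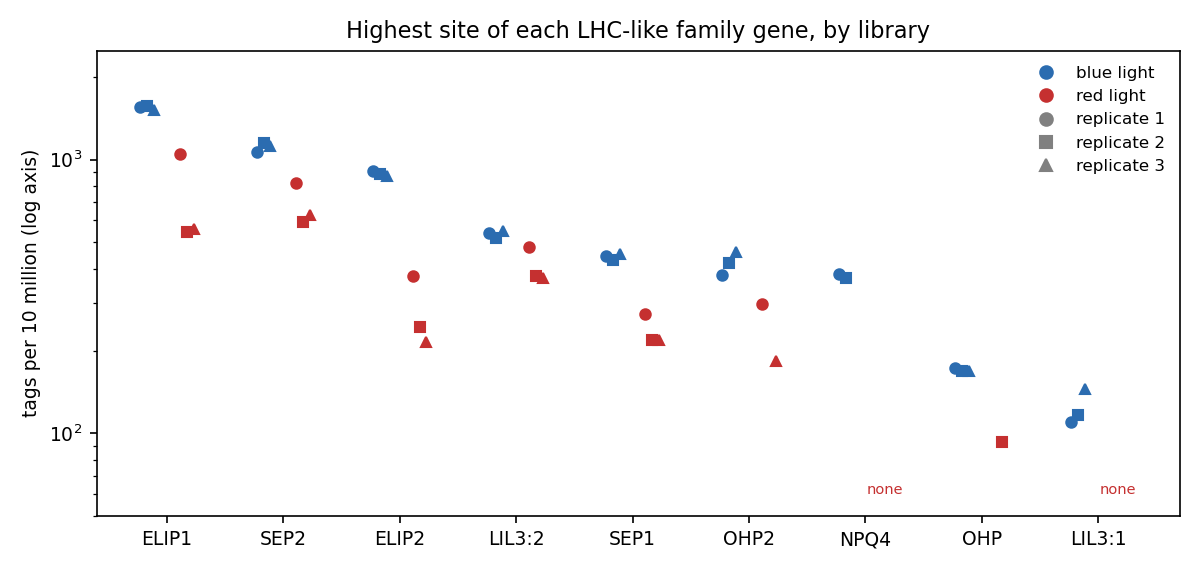
Tags per 10 M library tags (log axis) at the highest site of each LHC-like family gene, with 1 symbol per library in which that site was called, and "none" where no red library had a peak. ELIP1 is the tallest in blue light, and ELIP2 comes after SEP2 in blue light but below SEP2 and LIL3:2 in red light.

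Antenna genes, whose products ELIPs resemble, had smaller sites than both ELIP genes in blue light. In red light their highest sites were below ELIP1 in every library, while some stood above ELIP2. Of 21 antenna genes 16 had a consensus site in blue and 10 in red light, against the 43.6% and 26.7% of all protein-coding genes. The 4 highest in blue light were Lhca5 (537 ± 19.9 tags), AT1G76570 (456 ± 34.8), LHCB4.1 (419 ± 29.5) and LHCB2.3 (408 ± 26.0; SD, n = 3 each), all below ELIP2. In red light LHCA4 had 389.2, 251.3 and 292.8 tags in replicates 1 to 3, above ELIP2 in each. Lhca5 (407.1, 258.2 and 239.8 tags) and LHCB4.1 (401.5, 265.2 and 235.6) were also above ELIP2 in each red library. LHCA4 was picked out after its values were seen. CAB2 and CAB3, which share 1 site, LHCB2.2, LHCB4.2, LHCB6 and Lhca6 reached a consensus in blue light only, 6 of 16, a share near the 39.1% over all genes. The 6 antenna sites in all 6 lists had a median log2 fold of 0.82, and the fold of LHCB2.3, 1.28, lay between those of ELIP1 and ELIP2. Tags at near-identical antenna copies are uncertain.

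Of 16 genes of carotenoid synthesis, the xanthophyll cycle and other photoprotection, 15 had a consensus site in blue and 12 in red light, against the same 43.6% and 26.7% of all genes. The highest in blue light were LUT2, lycopene epsilon-cyclase, with 1106 ± 31.9 tags, PSY, phytoene synthase, with 794 ± 70.0, BETA-OHASE 2 with 534 ± 30.9 and BETA-OHASE 1 with 442 ± 23.2, the last pair encoding carotene hydroxylases (SD, n = 3 each). LUT2 thus stood above ELIP2 in blue light. In red light LUT2 had 1046.4, 639.5 and 733.6 tags in replicates 1 to 3, above ELIP1 in replicates 2 and 3, and PSY stood above ELIP2 in each. NPQ1, violaxanthin de-epoxidase, reached a consensus in blue light only (314 ± 6.70 tags, SD, n = 3), as did the kinase gene STN8 and PGR5 of cyclic electron flow, 3 of 15 where the share over all genes was 39.1%. The 10 sites of this list in all 6 peak lists had a median log2 fold of 0.51, near the 0.48 of all sites. The highest fold, at PGR5-LIKE A (0.67), was below those of both ELIP genes.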

How the data were processed

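Peaks were called by the authors with HOMER findPeaks (factor style) in each library against the mock, per the file headers, at 4-fold over the mock and over 10000 bp of surroundings and a false discovery rate of 0.001. The submitters' processing notes name HOMER 4.9 and the genome build TAIR10, and how reads were aligned was not given in the sources used. Per the file headers, the deposited tag signal is scaled to 10 M library tags, the mock signal is unscaled, the fold values are ratios over mock and surroundings, and the focus ratio is a fraction. The tag columns scaled to the mock imply a mock of 6.84 to 6.85 M tags. HOMER counted at most 6 to 9 tags per bp, per the file headers.

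Peaks sharing at least 1 bp were joined into sites, and the highest peak stood for a site in a library. Gene ends and names came from the RefSeq table of assembly TAIR10.1, whose nuclear chromosomes were taken as those of TAIR10. All 46 listed genes were found in it. Log2(tags per 10 M + 1) at sites in all 6 lists was fitted with limma 3.58.1 (R 4.3.3, eBayes with trend, Benjamini-Hochberg adjustment, threshold 0.05), after a test on simulated data. The difference between ELIP1 and ELIP2 was tested with an exact permutation test (scipy 1.17.1). SE values are limma's. Members, lists and the named genes were chosen with earlier results of these data known. Named were all LHC-like genes, antenna and photoprotection genes with a consensus site in 1 light or among the 4 highest in blue light, the 5 sites most alike to each ELIP site and the 3 next to it in fold on either side. Sequences were not used, and the planned count of promoter motifs was not run.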

Additional observations from a re-analysis of the deposited data

How the results depend on the processing

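The ELIP1 log2 fold of 1.18 ranged from 1.01 to 1.49 with each library left out in turn, and the ELIP2 fold of 1.71 from 1.54 to 1.94. Both moved by more than the SD between replicates with centring on the library median (0.65 and 1.18) and with tags per 1 M tags in peaks (0.30 and 0.83), a scale added after the data were seen. The difference between the genes kept its sign throughout. The site counts depended on the scale and on every library. Of the 3557 sites, the 1846 higher in blue light became 283 with centring, 53 per 1 M tags in peaks and 3422 per kb of window. Other settings also changed the number of sites tested. When peaks had to stand 8-fold over the mock, 533 of 1183 sites were higher in blue light. With a library left out, the count ran from 140 of 3561 sites (without blue light replicate 3) to 4543 of 4633 (without red light replicate 1). It was 149 without blue light replicate 1 and 149 without blue light replicate 2. Without red light replicates 2 and 3 in turn it was 220 and 214. It thus fell without any library other than red light replicate 1. The 1 site higher in red light became 421, 2838, 8 and 3 with centring, per 1 M tags in peaks, per kb and after mock subtraction, and 0 to 6 with a library left out. With the replicate number as a block, 1399 sites were higher in blue light and 0 in red light by limma (2 toward red light with p under 0.05 before adjustment). The difference between ELIP1 and ELIP2 then had an exact permutation p = 0.25, the lowest that 3 pairs can give. This p too is a description only, for genes picked with earlier results known. Same-numbered libraries did not deviate together (r = -0.04, -0.09 and 0.05), so the numbers are not read as pairs.

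At 8-fold over the mock, no ELIP peak was left in red light (0 of 6) and neither site had a fold. Consensus genes then numbered 3 in red light for the LHC-like list, 8 in blue and 3 in red light for the antenna list, and 9 and 4 for the photoprotection list. The share of all protein-coding genes at this bar is not reported here, so these counts do not show whether the lists differ from other genes. With a library left out, an alternative added after the data were seen, red light counts were 5 to 6, 6 to 10 and 10 to 12 for these lists. The antenna count of 6 came without red light replicate 2. The share of all protein-coding genes with a library left out is not reported here either. These counts too do not show whether the lists differ from other genes. A planned edgeR fit on whole tags was not run, because the deposited values are rounded.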
